A study of Mus musculus with 32 samples.

Results

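Collagen genes were taken as the rows of the deposited gene table whose mouse symbol reads Col, a number, a and a number, and which held 10 or more counts in at least 8 of the 32 libraries. This rule gave 37 genes of the 36595 in the table. They comprise 10 chains of fibrillar collagens, 5 chains of the basement membrane collagen type IV and 22 other chains, namely 5 of beaded-filament type VI, 7 that associate with fibrils, 3 network-forming, 1 anchoring, 2 multiplexin and 2 transmembrane chains, with 2 (Col26a1 and Col28a1) left unclassed. The table held 45 rows with such a symbol. At the edge of the rule, Col24a1 was kept with exactly 8 libraries at 10 or more counts, and Col2a1 was left out with 6; the other 7 rows left out reached that count in 0 to 5 libraries.

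RNA was measured by directional sequencing of poly(A)-selected RNA from cultured mouse islets of Langerhans, the clusters of hormone-secreting cells of the pancreas. All mice were 10 weeks old, of both sexes and on the C57BL/6NHsd background, and islets recovered overnight at 11.1 mM glucose after collagenase digestion, before 48 h in culture. The 4 groups of 8 libraries were, by genotype and culture glucose, hIAPP with 16.7 mM, mIAPP with 16.7 mM, hIAPP with 11.1 mM and mIAPP with 11.1 mM. hIAPP mice carry the human gene for islet amyloid polypeptide, which can aggregate into amyloid, at the place of the mouse gene through homologous recombination, so that the mouse locus drives it; mIAPP mice are their wild-type littermates with mouse Iapp. The work was done as 8 experiments, here called sets 1 to 8, which each held the 4 groups; the number of animals pooled per set is unstated. With the set fitted as a block, the tests below compare each mean difference between groups with the spread left after group and set are fitted. The 4 groups share 1 estimate of that spread for each gene.

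Collagens are secreted proteins whose alpha chains wind around each other into a helix rich in glycine and hydroxyproline. Fibrillar types I, III and V build the fibres of connective tissue and are made mainly by fibroblasts and, in the pancreas, stellate cells, whereas type IV forms the sheet beneath endothelial and epithelial cells. In mouse islets the basement membrane lies around the capillaries and is largely laid down by endothelial cells. The remaining types decorate fibrils, form fine filaments, or stay anchored in the cell membrane.

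The libraries held between 16.1 M and 43.7 M (mega) estimated counts. Levels are CPM, counts per M counts of the library after scaling by the trimmed mean of M-values (TMM). The share of counts from the 13 mitochondrially encoded protein genes differed between groups and averaged 4.06% ± 1.63 in the hIAPP and 11.3% ± 11.2 in the mIAPP cultures at 16.7 mM, and 16.6% ± 7.83 in the hIAPP and 18.2% ± 11.6 in the mIAPP cultures at 11.1 mM (SD, n = 8 each). The mIAPP library of set 7 at 16.7 mM stood apart, with 37%. Libraries under 10% were 8 of the hIAPP and 5 of the mIAPP libraries at 16.7 mM, and 2 of the hIAPP and 3 of the mIAPP libraries at 11.1 mM. Every test below of the 36 collagen genes past the count filter was also run in those 18 alone, with the share as a covariate, and without the mIAPP library of set 7. Mouse Iapp, the replaced gene, averaged 10904 ± 593 CPM in hIAPP and 24272 ± 4171 CPM in mIAPP cultures at 16.7 mM, and 6694 ± 788 CPM in hIAPP and 11944 ± 2147 CPM in mIAPP cultures at 11.1 mM (SD, n = 8 each), with no overlap between genotypes at either glucose level; how reads of the human insert were counted is not given in the sources used here. Of the markers of the labelled tissue, the 9 of beta cells summed to 135003 CPM or more in every library.

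Per kilobase of annotated exon, the highest collagen levels over all 32 libraries were those of the stromal fibre chains Col1a1, at 35.5 ± 16.4 CPM per kb, and Col3a1, at 23.8 ± 13.1 (SD over 32 libraries). Next came the type IV chain Col4a1, the highest basement membrane chain, at 13.8 ± 5.40, and the other type I chain, Col1a2, at 12.8 ± 5.80. Col6a1, a chain of the filament-forming type VI, led the other collagens at 11.9 ± 5.90. Neighbours in this order differed by less than the spread between libraries. The lowest were Col22a1, which marks tissue junctions, at 0.0593, and the fibrillar chain Col24a1, at 0.0274 CPM per kb. Col24a1 had no count in 3 libraries and Col11a1, a cartilage chain of type XI, in 1, where a count of 0 allows a level of up to 0.119 to 0.197 CPM for Col24a1 and 0.286 CPM for Col11a1, counting error alone.

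**Figure D1:**
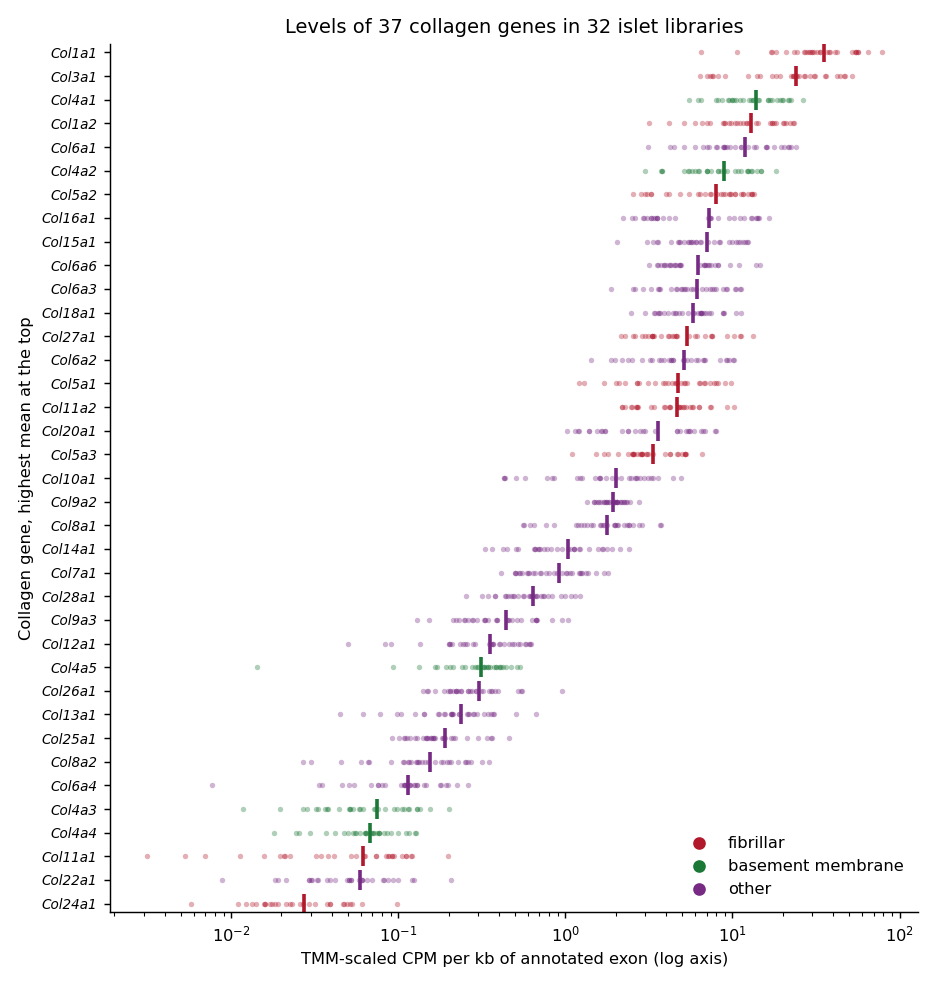
TMM-scaled CPM per kb of annotated exon (log axis) of the 37 collagen genes, 1 point per library and a bar at the mean over 32 libraries, coloured by class; libraries at 0 are not drawn. Col1a1 averages 35.5 and Col24a1 0.0274 CPM per kb, and the rows of Col1a1, Col3a1 and Col4a1 overlap.

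Chains that assemble into the same molecule were compared as ratios of their levels per kb. Col4a1 exceeded Col4a2 by 1.60 ± 0.152 times over 32 libraries (SD), within 1.31 to 2.09 in every library, and Col6a1 exceeded Col6a2 by 2.32 ± 0.191 times. The ratio of Col1a1 to Col1a2 was wider, at 2.80 ± 0.536, and ranged from 2.05 to 4.19. For type V, the regulator of fibril width, Col5a1 stood at 0.522 ± 0.0987 times Col5a2 in hIAPP and 0.523 ± 0.0995 times in mIAPP islets at 16.7 mM, and at 0.687 ± 0.0941 times in hIAPP and 0.677 ± 0.118 times in mIAPP islets at 11.1 mM (SD, n = 8 each). The ratio of Col6a6 to Col6a3, alternative chains of type VI, had a wider range, at 1.22 ± 0.882 and from 0.493 to 5.06 over the 32 libraries.

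Collagen genes also differed in how much they varied within a group. The coefficient of variation over the 8 libraries, taken as the median of the 4 groups, was 15.7% for Col9a2, a type IX chain, 16.5% for Col16a1 and 22.5% for Col27a1, against 39.5% for Col1a1, 47.2% for Col3a1 and 71.7% for Col11a1. Set 5 held the lowest Col1a1 of each group, at 42.6 CPM in hIAPP and 69.6 CPM in mIAPP cultures at 16.7 mM, and 113 CPM in hIAPP and 137 CPM in mIAPP cultures at 11.1 mM. The same set held the highest Col6a6 at 11.1 mM in both genotypes, at 135 CPM in hIAPP and 126 CPM in mIAPP islets, and likewise the highest Col11a2, at 70.2 CPM in hIAPP and 63.6 CPM in mIAPP islets. At 11.1 mM the set lowest for the stromal fibre chain was thus the highest for these chains. At 16.7 mM the highest Col6a6 was in set 5 in hIAPP and set 8 in mIAPP islets. The highest Col11a2 was there in set 8 in hIAPP and set 7 in mIAPP islets.

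At higher glucose more collagen genes were lower than higher, in both genotypes. The first comparison asks how 16.7 mM differs from 11.1 mM glucose within a genotype. In hIAPP islets 20 of the 36 collagen genes tested fell and 3 rose at adjusted p under 0.05 (edgeR quasi-likelihood test, Benjamini-Hochberg over 16428 genes), that is 55.6% lower and 8.33% higher, beside 33.3% of all genes lower and 32.2% higher (65.5% called in all). In mIAPP islets 13 fell and 2 rose, or 36.1% and 5.56%, beside 22.7% of all genes lower and 24.9% higher (47.5% called in all). Counting both directions, 63.9% of the collagen genes passed in hIAPP and 41.7% in mIAPP islets. The median log2 fold change of the 36 genes was -0.56 in hIAPP islets, where that of all genes was -0.02, and -0.43 in mIAPP islets, where that of all genes was -0.03. All 13 genes that fell in mIAPP islets were among the 20 that fell in hIAPP islets, 65% of the longer list, and both genes that rose in mIAPP islets rose in hIAPP islets.

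The counts depended on the libraries used. In hIAPP islets 15 collagen genes passed without set 2, and 15 in the 18 libraries under 10% mitochondrial counts, in place of 23. In mIAPP islets 8 passed without the set as a block, in place of 15. With no filter on low counts 13 fell in hIAPP islets in place of 20, and 8 fell in mIAPP islets in place of 13. Without set 2, and likewise without set 3, 13 fell in hIAPP islets, and without set 5, and likewise without set 6, 8 fell in mIAPP islets. The 16.7 mM libraries had on average the lower mitochondrial share, and with that share as a covariate 16 collagen genes passed in hIAPP and 19 in mIAPP islets. Of the calls made, 8 in hIAPP islets (Col6a1, Col6a6, Col11a2, Col13a1, Col14a1, Col16a1, Col20a1 and Col27a1) and 7 in mIAPP islets (Col6a6, Col9a3, Col11a2, Col14a1, Col16a1, Col20a1 and Col27a1) were kept under all 16 alternatives computed. Without the block the hIAPP calls of Col1a2, Col4a2, Col6a3, Col8a2, Col15a1, Col18a1 and Col25a1 were lost, and the mIAPP calls of Col1a1, Col6a1, Col6a2, Col7a1, Col15a1, Col26a1 and Col28a1. In the libraries under 10% mitochondrial counts the lost calls were those of Col1a1, Col1a2, Col4a3, Col7a1, Col8a2, Col15a1, Col18a1, Col25a1, Col26a1 and Col28a1 in hIAPP islets, and of Col7a1, Col15a1, Col18a1, Col26a1 and Col28a1 in mIAPP islets. With the covariate they were those of Col4a3, Col7a1, Col8a2, Col9a3, Col18a1, Col25a1, Col26a1 and Col28a1 in hIAPP islets, and of Col7a1 and Col26a1 in mIAPP islets. A lost call did not always go with a smaller estimate. In the libraries under 10% mitochondrial counts 4 of the 10 lost hIAPP estimates were as far from 0 or farther, among them Col1a1 at -0.87, Col1a2 at -0.77 and Col15a1 at -0.79, and 6 were nearer, down to Col4a3 at -0.06. With the covariate 4 of the 8 were as far or farther, 2 were nearer and 2 changed sign. Calls that ended when 1 set was left out are given with each gene.

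**Figure D2:**
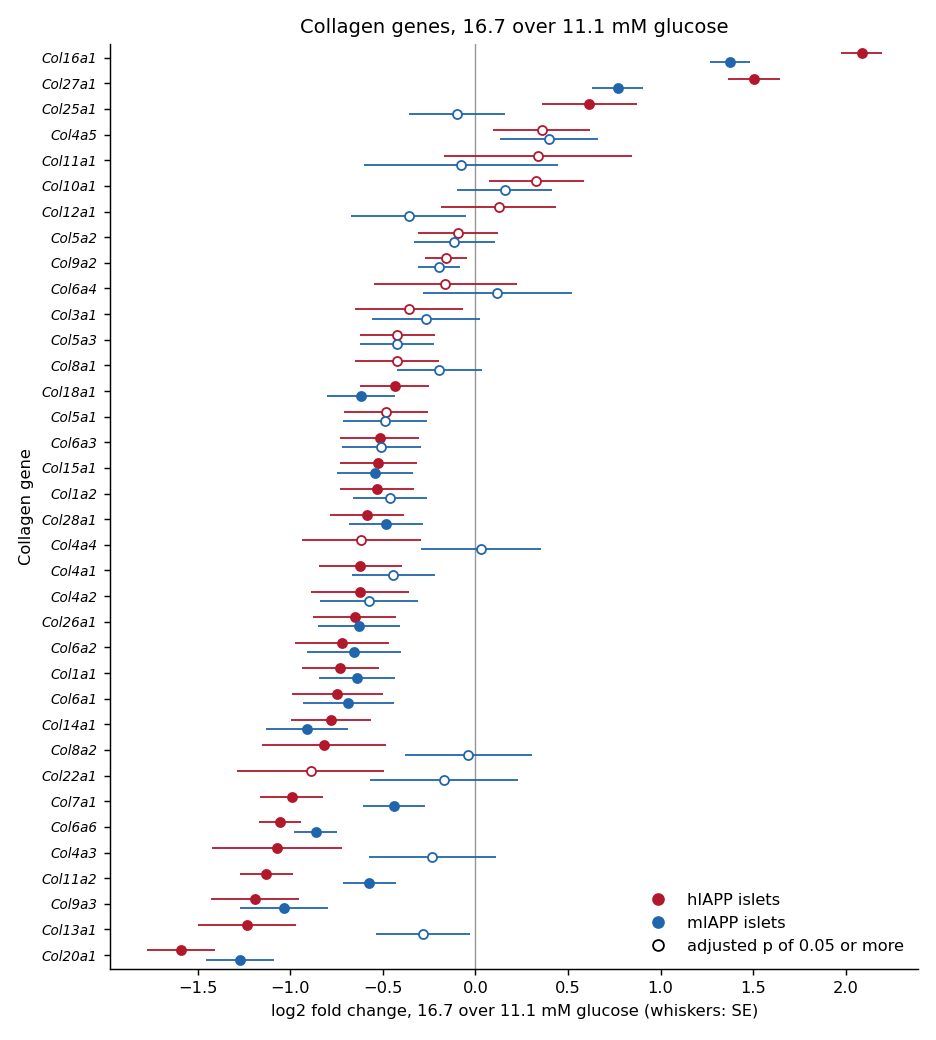
Log2 fold change (16.7 over 11.1 mM glucose, whiskers SE) of the 36 collagen genes tested, in hIAPP and mIAPP islets, ordered by the value in hIAPP islets; filled points passed adjusted p under 0.05. Col16a1 and Col27a1 lie to the right in both genotypes, and most other points lie left of 0.

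Among fibrillar chains, 3 of 9 tested fell and 1 rose with glucose in hIAPP islets, 33.3% lower where 33.3% of all genes were. In mIAPP islets 2 fell and 1 rose, 22.2% lower where 22.7% of all genes were, so the share of this class that fell lay at the background. The share that rose was 11.1% in each genotype, beside 32.2% of all genes in hIAPP and 24.9% in mIAPP islets. The class had a median log2 fold change of -0.42 in hIAPP and -0.43 in mIAPP islets. Col1a1, the major chain of type I, had 42.6 to 276 CPM (median 191) in hIAPP islets at 16.7 mM against 113 to 513 CPM (median 358) at 11.1 mM. In mIAPP islets it had 69.6 to 249 CPM (median 185) at 16.7 mM against 137 to 423 CPM (median 235) at 11.1 mM. The groups overlapped, but within a set the 16.7 mM library was the lower in 7 of 8 sets in each genotype; the log2 fold change was -0.73 ± 0.21 (SE; adjusted p = 0.00336) in hIAPP and -0.64 ± 0.20 (SE; adjusted p = 0.0122) in mIAPP islets. The hIAPP exception was set 8, with 221 CPM at 16.7 mM and 119 CPM at 11.1 mM.

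Its partner Col1a2 had 39.4 to 227 CPM (median 147) in hIAPP islets at 16.7 mM against 63.8 to 285 CPM (median 233) at 11.1 mM. Col1a2 in mIAPP islets had 52.0 to 172 CPM (median 131) at 16.7 mM against 81.2 to 289.8 CPM (median 149) at 11.1 mM. It fell, with a log2 fold change of -0.53 ± 0.20 (adjusted p = 0.0228) in hIAPP islets, a call lost without set 2, 3 or 7, and gave -0.46 ± 0.20 (adjusted p = 0.0582) in mIAPP islets. Both type I chains thus had the same sign in both genotypes, with ranges that overlapped. Col11a2, a type XI chain best known from cartilage, had 15.0 to 26.8 CPM (median 17.7) in hIAPP islets at 16.7 mM against 28.5 to 70.2 CPM (median 38.7) at 11.1 mM, with no overlap. In mIAPP islets it had 15.0 to 35.1 CPM (median 29.0) at 16.7 mM against 23.5 to 63.6 CPM (median 39.7) at 11.1 mM. It fell in 8 of 8 sets of each genotype, with a log2 fold change of -1.13 ± 0.14 (adjusted p = 2.5e-07) in hIAPP and -0.57 ± 0.14 (adjusted p = 0.00176) in mIAPP islets.

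The type III chain Col3a1 and the type V chains Col5a1, Col5a2 and Col5a3 did not pass in either genotype, with log2 fold changes from -0.48 (Col5a1) to -0.09 (Col5a2) in hIAPP islets and from -0.49 (Col5a1) to -0.11 (Col5a2) in mIAPP islets. Col11a1 gave 0.34 ± 0.51 in hIAPP and -0.08 ± 0.52 in mIAPP islets and did not pass. Its highest library held 2.52 CPM.

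In the basement membrane class 3 of 5 chains fell with glucose in hIAPP islets, 60% lower beside 33.3% of all genes. The median log2 fold change was -0.62 over the class. In mIAPP islets 0 passed with edgeR or DESeq2, beside 22.7% of all genes lower and 24.9% higher with edgeR. There 1 had an unadjusted p under 0.05, and the class median was -0.23. Col4a1 and Col4a2, which pair into the common type IV molecule, were among those that fell. Col4a1 had 46.4 to 122 CPM (median 72.9) in hIAPP islets at 16.7 mM against 59.4 to 168 CPM (median 132) at 11.1 mM. Col4a1 in mIAPP islets had 40.9 to 138 CPM (median 91.4) at 16.7 mM against 48.7 to 198 CPM (median 128) at 11.1 mM. Its log2 fold change was -0.62 ± 0.23 (SE; adjusted p = 0.0182) in hIAPP and -0.44 ± 0.22 (adjusted p = 0.106) in mIAPP islets. Col4a2 had 25.0 to 71.7 CPM (median 41.4) in hIAPP islets at 16.7 mM against 25.2 to 98.6 CPM (median 81.1) at 11.1 mM. Col4a2 in mIAPP islets had 19.8 to 84.9 CPM (median 47.6) at 16.7 mM against 24.7 to 121 CPM (median 71.4) at 11.1 mM. Glucose gave a log2 fold change of -0.62 ± 0.27 (adjusted p = 0.0431) in hIAPP and -0.58 ± 0.27 (adjusted p = 0.0772) in mIAPP islets. For both chains 7 of 8 sets were lower at 16.7 mM in each genotype, and the difference between the genotypes did not pass (interaction adjusted p = 0.805 for Col4a1 and 0.963 for Col4a2). The hIAPP calls were lost without set 2 or 3 for Col4a1 and without set 2, 3, 4 or 5 for Col4a2.

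Col4a3, a chain of the kidney-type network, had 0.117 to 0.616 CPM (median 0.443) in hIAPP islets at 16.7 mM against 0.373 to 1.15 CPM (median 0.965) at 11.1 mM. Col4a3 in mIAPP islets had 0.330 to 2.01 CPM (median 0.612) at 16.7 mM against 0.195 to 1.54 CPM (median 1.01) at 11.1 mM. It fell in 8 of 8 hIAPP sets, with a log2 fold change of -1.07 ± 0.35 (adjusted p = 0.0094), but the estimate was 0.21 with the mitochondrial share as a covariate; in mIAPP islets it was -0.23 ± 0.34 (adjusted p = 0.595). Its partners Col4a4, at -0.62 ± 0.32 in hIAPP and 0.03 ± 0.32 in mIAPP islets, and Col4a5, at 0.36 ± 0.26 in hIAPP and 0.40 ± 0.26 in mIAPP islets, did not pass. Col4a3 shares 5.65% of its exon bases with a gene on the opposite strand, and the strand setting of the quantification is not given in the sources used here.

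Col4a1 and Col4a2 lie head to head on mouse chromosome 8, and their annotated starts are close enough that both promoter windows share 78 bases, from 11312777 to 11312854 (RefSeq, GRCm38.p6; 250 bases before to 50 after each start). Both windows are shown because the chains kept a nearly fixed ratio, a trait that Col6a1 and Col6a2 shared (2.32 ± 0.191 times). Each is read 5′ to 3′ on its gene's own strand, minus for Col4a1 at chr8:11312777-11313076 and plus for Col4a2 at chr8:11312555-11312854. Capitals mark matches on either strand to the CCAAT box (CCAAT), the GC box (GGGCGG), the TATA box (TATAAA) and the E box (CACGTG).
Col4a1: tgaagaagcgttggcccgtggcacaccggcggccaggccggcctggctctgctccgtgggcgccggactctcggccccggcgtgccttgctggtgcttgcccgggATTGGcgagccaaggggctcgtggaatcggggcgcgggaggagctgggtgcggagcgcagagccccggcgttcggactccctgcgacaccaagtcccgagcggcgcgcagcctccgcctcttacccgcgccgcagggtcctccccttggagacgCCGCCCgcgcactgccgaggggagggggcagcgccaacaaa
Col4a2: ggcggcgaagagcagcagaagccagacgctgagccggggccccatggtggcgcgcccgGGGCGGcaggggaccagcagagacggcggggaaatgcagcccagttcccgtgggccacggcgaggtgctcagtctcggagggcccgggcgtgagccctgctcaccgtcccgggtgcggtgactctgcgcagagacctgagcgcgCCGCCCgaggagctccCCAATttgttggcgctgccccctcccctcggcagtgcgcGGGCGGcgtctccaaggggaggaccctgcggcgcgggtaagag
In the windows, Col4a1 held 1 CCAAT and 1 GC box match and Col4a2 1 CCAAT and 3 GC box matches, with no TATA box or E box in either. The GC box of Col4a1 lies in the shared bases and is also 1 of the 3 of Col4a2, read from the other strand. Of 37 collagen genes 29 had a RefSeq window. The CCAAT box occurred in 37.9% of these and 37.4% of all 32851 windows, the GC box in 65.5% and 35.7%, the TATA box in 13.8% and 13.6%, and the E box in 0 of 29 and 7.15%. None of the 4 motifs is contained in another. Such letter matches describe the sequence and are not evidence of binding.

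Of the 22 other chains 14 fell and 2 rose with glucose in hIAPP islets (63.6% lower, median log2 fold change -0.62), and 11 fell and 1 rose in mIAPP islets (50% lower, median -0.46), beside the same shares of all genes. Of the 5 type VI chains, which form filaments around cells, 4 fell with glucose in hIAPP and 3 in mIAPP islets. Col6a1 had 13.7 to 69.5 CPM (median 38.6) in hIAPP islets at 16.7 mM against 22.4 to 98.2 CPM (median 73.9) at 11.1 mM. Col6a1 in mIAPP islets had 18.6 to 60.7 CPM (median 41.5) at 16.7 mM against 30.9 to 104 CPM (median 54.1) at 11.1 mM. It fell, with a log2 fold change of -0.75 ± 0.25 (adjusted p = 0.0104) in hIAPP and -0.69 ± 0.25 (adjusted p = 0.0245) in mIAPP islets, with ranges that overlapped; the mIAPP call was lost without set 3, 5 or 6. Col6a2, the second chain of the same molecule, had 11.8 to 50.3 CPM (median 31.5) in hIAPP islets at 16.7 mM against 18.2 to 79.9 CPM (median 56.7) at 11.1 mM. Col6a2 in mIAPP islets had 15.6 to 51.7 CPM (median 35.7) at 16.7 mM against 19.9 to 84.7 CPM (median 44.6) at 11.1 mM. The ranges overlapped, with a log2 fold change of -0.72 ± 0.25 (adjusted p = 0.0153) in hIAPP and -0.66 ± 0.25 (adjusted p = 0.0353) in mIAPP islets; the hIAPP call was lost without set 2 and the mIAPP call without set 1, 3, 5 or 6 or the mIAPP library of set 7. The longest of these chains, Col6a3, had 30.3 to 95.0 CPM (median 60.7) in hIAPP islets at 16.7 mM against 34.7 to 133 CPM (median 99.1) at 11.1 mM. Col6a3 in mIAPP islets had 22.5 to 83.6 CPM (median 62.8) at 16.7 mM against 43.1 to 135 CPM (median 73.6) at 11.1 mM. It fell in hIAPP islets, and the values were -0.52 ± 0.21 (adjusted p = 0.0355) in hIAPP and -0.51 ± 0.21 (adjusted p = 0.0511) in mIAPP islets; the hIAPP call was lost without set 1, 2, 3, 4 or 6. Col6a4 did not pass, at -0.16 ± 0.38 in hIAPP and 0.12 ± 0.40 in mIAPP islets.

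Col6a6 had the smallest coefficient of variation of the type VI chains, 22.9%. It had 29.1 to 44.3 CPM (median 36.4) in hIAPP islets at 16.7 mM against 58.5 to 135 CPM (median 70.2) at 11.1 mM. Col6a6 in mIAPP islets had 32.4 to 44.6 CPM (median 39.7) at 16.7 mM against 45.3 to 126 CPM (median 66.0) at 11.1 mM. In both genotypes every 16.7 mM library lay below every 11.1 mM library. This gave a log2 fold change of -1.06 ± 0.12 (adjusted p = 2.37e-08) in hIAPP and -0.86 ± 0.11 (adjusted p = 1.36e-06) in mIAPP islets, or 2.08-fold lower at 16.7 mM in hIAPP and 1.82-fold lower in mIAPP islets. Groups without overlap were seen for 5 of the 36 collagen genes tested in hIAPP islets (Col6a6, Col9a3, Col11a2, Col16a1 and Col27a1), beside 22.7% of all genes, and for 2 in mIAPP islets (Col6a6 and Col16a1), beside 4.05% of all genes.

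The multiplexins, which carry the endostatin-like fragments in their tails, fell in both genotypes. Col15a1 had 12.9 to 66.9 CPM (median 37.6) in hIAPP islets at 16.7 mM against 21.2 to 78.1 CPM (median 65.4) at 11.1 mM. Col15a1 in mIAPP islets had 19.6 to 52.8 CPM (median 32.5) at 16.7 mM against 30.9 to 78.2 CPM (median 42.1) at 11.1 mM. Its log2 fold change was -0.52 ± 0.21 (adjusted p = 0.0294) in hIAPP and -0.54 ± 0.21 (adjusted p = 0.0337) in mIAPP islets. Col18a1, the source of endostatin, had 17.3 to 47.3 CPM (median 36.0) in hIAPP islets at 16.7 mM against 25.8 to 73.9 CPM (median 46.8) at 11.1 mM. Col18a1 in mIAPP islets had 21.2 to 50.9 CPM (median 28.7) at 16.7 mM against 31.1 to 78.6 CPM (median 45.5) at 11.1 mM. For Col18a1 the log2 fold change was -0.44 ± 0.19 (adjusted p = 0.0414) in hIAPP and -0.62 ± 0.19 (adjusted p = 0.00815) in mIAPP islets. The ranges overlapped for both genes. The Col15a1 calls were lost without set 2, 3 or 7 in hIAPP islets and 1, 3, 5 or 6 or the mIAPP library of set 7 in mIAPP islets, and the Col18a1 call in hIAPP islets without set 1, 2, 3 or 5.

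Of the 7 chains that associate with fibrils, Col9a3, Col14a1 and Col20a1 fell in both genotypes and Col16a1, described further on, rose. Col20a1 had 5.85 to 15.0 CPM (median 7.09) in hIAPP islets at 16.7 mM against 13.4 to 33.4 CPM (median 26.0) at 11.1 mM. Col20a1 in mIAPP islets had 5.29 to 28.0 CPM (median 10.1) at 16.7 mM against 12.2 to 41.1 CPM (median 30.5) at 11.1 mM. It was lower in 8 of 8 sets of each genotype, with a log2 fold change of -1.59 ± 0.19 (adjusted p = 7.59e-08) in hIAPP and -1.27 ± 0.18 (adjusted p = 4.61e-06) in mIAPP islets. Col14a1, which binds the surface of type I fibrils, had 2.33 to 8.42 CPM (median 5.10) in hIAPP islets at 16.7 mM against 2.98 to 16.8 CPM (median 9.86) at 11.1 mM. Col14a1 in mIAPP islets had 2.55 to 7.85 CPM (median 4.77) at 16.7 mM against 3.63 to 13.3 CPM (median 9.18) at 11.1 mM. For Col14a1 the log2 fold change was -0.78 ± 0.22 (adjusted p = 0.00296) in hIAPP and -0.91 ± 0.22 (adjusted p = 0.00154) in mIAPP islets. Its groups overlapped, while 8 of 8 hIAPP sets and 7 of 8 mIAPP sets were lower at 16.7 mM. The type IX chain Col9a3 had 0.591 to 1.25 CPM (median 0.985) in hIAPP islets at 16.7 mM against 1.48 to 4.01 CPM (median 1.81) at 11.1 mM, with no overlap. Col9a3 in mIAPP islets had 0.501 to 1.97 CPM (median 1.21) at 16.7 mM against 1.27 to 3.66 CPM (median 2.49) at 11.1 mM. It fell in 8 of 8 sets of each genotype, with a log2 fold change of -1.19 ± 0.24 (adjusted p = 0.000115) in hIAPP and -1.04 ± 0.24 (adjusted p = 0.000882) in mIAPP islets. Of its exon bases 6.07% overlap Tcfl5 on the opposite strand. Col9a2, at -0.16 ± 0.11 in hIAPP and -0.20 ± 0.11 in mIAPP islets, Col12a1, at 0.13 ± 0.31 in hIAPP and -0.36 ± 0.31 in mIAPP islets, and Col22a1, at -0.89 ± 0.40 in hIAPP and -0.17 ± 0.40 in mIAPP islets, did not pass (log2).

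The anchoring fibril chain Col7a1 had 5.16 to 7.32 CPM (median 5.59) in hIAPP islets at 16.7 mM against 7.29 to 18.4 CPM (median 10.9) at 11.1 mM. Col7a1 in mIAPP islets had 4.26 to 15.6 CPM (median 7.75) at 16.7 mM against 5.42 to 14.0 CPM (median 12.5) at 11.1 mM. It fell, with a log2 fold change of -0.99 ± 0.17 (adjusted p = 1.88e-05) in hIAPP and -0.44 ± 0.17 (adjusted p = 0.034) in mIAPP islets, the mIAPP call lost without set 2, 5 or 8. The hIAPP ranges overlapped by 1 library at each glucose level. The transmembrane chain Col13a1, known at the neuromuscular junction, had 0.205 to 0.881 CPM (median 0.568) in hIAPP islets at 16.7 mM against 0.868 to 1.69 CPM (median 1.13) at 11.1 mM. Col13a1 in mIAPP islets had 0.45 to 2.32 CPM (median 1.21) at 16.7 mM against 0.801 to 3.08 CPM (median 1.13) at 11.1 mM. It fell in hIAPP islets, with a log2 fold change of -1.24 ± 0.26 (adjusted p = 0.000249), and gave -0.28 ± 0.25 (adjusted p = 0.364) in mIAPP islets; the difference between genotypes did not pass (interaction adjusted p = 0.156).

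The genes that fell also included the low members Col26a1, Col28a1 and Col8a2. Col26a1 had 1.15 to 2.13 CPM (median 1.64) in hIAPP islets at 16.7 mM against 1.8 to 4.25 CPM (median 2.51) at 11.1 mM. Col26a1 in mIAPP islets had 1.21 to 4.47 CPM (median 1.8) at 16.7 mM against 1.82 to 7.83 CPM (median 2.75) at 11.1 mM. Its log2 fold change was -0.65 ± 0.22 (adjusted p = 0.0126) in hIAPP and -0.63 ± 0.22 (adjusted p = 0.0217) in mIAPP islets; with the mitochondrial covariate the hIAPP estimate was 0.10, and the mIAPP call was lost without set 2 or 6. Col28a1 had 1.25 to 3.58 CPM (median 2.57) in hIAPP islets at 16.7 mM against 2.23 to 5.60 CPM (median 3.48) at 11.1 mM. Col28a1 in mIAPP islets had 1.56 to 4.65 CPM (median 2.41) at 16.7 mM against 2.31 to 6.03 CPM (median 3.16) at 11.1 mM. Its log2 fold change was -0.59 ± 0.20 (adjusted p = 0.0131) in hIAPP and -0.48 ± 0.20 (adjusted p = 0.0488) in mIAPP islets, lost without set 3 or 8 in hIAPP and 1, 2, 5 or 6 or the mIAPP library of set 7 in mIAPP islets. These calls rest on overlapping ranges. Col8a2, a network chain of the Descemet membrane of the eye, had 0.135 to 0.875 CPM (median 0.577) in hIAPP islets at 16.7 mM against 0.483 to 1.58 CPM (median 0.808) at 11.1 mM. Col8a2 in mIAPP islets had 0.300 to 1.12 CPM (median 0.596) at 16.7 mM against 0.120 to 1.43 CPM (median 0.614) at 11.1 mM. It fell, with a log2 fold change of -0.82 ± 0.34 (adjusted p = 0.0354) in hIAPP islets, lost without set 4, 5, 7 or 8, and gave -0.04 ± 0.35 (adjusted p = 0.936) in mIAPP islets. The other network chains, Col8a1 and the hypertrophic cartilage chain Col10a1, did not pass in either genotype.

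Col16a1 and Col27a1 rose with glucose in every set of both genotypes. Col16a1, a fibril-associated chain found in many connective tissues, had 79.1 to 112 CPM (median 93.9) in hIAPP islets at 16.7 mM against 14.9 to 26.1 CPM (median 22.8) at 11.1 mM. In mIAPP islets it had 48.2 to 75.3 CPM (median 53.0) at 16.7 mM against 16.8 to 30.7 CPM (median 21.0) at 11.1 mM. Neither pair of groups overlapped. The log2 fold change was 2.09 ± 0.11 (SE; adjusted p = 5.47e-14) in hIAPP and 1.37 ± 0.11 (SE; adjusted p = 2.21e-10) in mIAPP islets, or 4.25-fold in hIAPP and 2.59-fold in mIAPP islets. Col27a1, a fibrillar chain known from the growth plate cartilage, had 89.7 to 173 CPM (median 127) in hIAPP islets at 16.7 mM against 33.3 to 58.4 CPM (median 43.4) at 11.1 mM, again without overlap. In mIAPP islets it had 48.4 to 96.2 CPM (median 65.8) at 16.7 mM against 28.1 to 56.5 CPM (median 39.7) at 11.1 mM, and these ranges overlapped. The log2 fold change was 1.51 ± 0.14 (SE; adjusted p = 1.7e-09) in hIAPP and 0.77 ± 0.14 (SE; adjusted p = 7.76e-05) in mIAPP islets, or 2.84-fold in hIAPP and 1.70-fold in mIAPP islets.

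Both genes lie on mouse chromosome 4, on the plus strand and not neighbours, and their windows are given beside that of Col1a2, which fell (RefSeq, GRCm38.p6, 250 bases before to 50 after the start, 5′ to 3′; capitals mark the same motifs). Col16a1 (ENSMUSG00000040690) spans chr4:130047840-130099283 and Col27a1 (ENSMUSG00000045672) chr4:63214004-63334991 in GENCODE M21 on GRCm38. The windows lie at chr4:130047590-130047889 for Col16a1, chr4:63215162-63215461 for Col27a1 and, on chromosome 6, chr6:4505368-4505667 for Col1a2. Those of Col27a1 and Col1a2 follow the RefSeq start and lie inside the GENCODE span, which starts at 63214004 for Col27a1 and 4504814 for Col1a2. Motifs near these GENCODE starts were not searched.
Col16a1: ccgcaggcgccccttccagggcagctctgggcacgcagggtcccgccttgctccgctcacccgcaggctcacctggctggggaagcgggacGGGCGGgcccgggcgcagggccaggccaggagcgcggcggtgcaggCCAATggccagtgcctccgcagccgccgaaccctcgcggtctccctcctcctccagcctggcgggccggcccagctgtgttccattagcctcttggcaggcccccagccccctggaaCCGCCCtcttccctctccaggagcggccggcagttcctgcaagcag
Col27a1: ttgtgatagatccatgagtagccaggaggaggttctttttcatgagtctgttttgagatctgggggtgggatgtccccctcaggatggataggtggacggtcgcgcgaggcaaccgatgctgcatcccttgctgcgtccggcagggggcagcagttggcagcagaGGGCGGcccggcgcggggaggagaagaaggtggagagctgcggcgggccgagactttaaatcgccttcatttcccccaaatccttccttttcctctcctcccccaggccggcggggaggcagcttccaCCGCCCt
Col1a2: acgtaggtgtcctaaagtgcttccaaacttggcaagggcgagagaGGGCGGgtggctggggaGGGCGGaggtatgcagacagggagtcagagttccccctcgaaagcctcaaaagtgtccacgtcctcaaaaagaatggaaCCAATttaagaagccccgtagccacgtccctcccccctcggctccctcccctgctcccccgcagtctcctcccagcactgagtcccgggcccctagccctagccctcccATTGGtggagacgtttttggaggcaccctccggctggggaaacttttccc
Col16a1 held 1 CCAAT and 2 GC box matches, Col27a1 2 GC box matches and no CCAAT, and Col1a2 2 of each; the TATA box and E box letters were in none of these windows.

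The third of the 36 tested genes that rose, Col25a1, did so in hIAPP islets. It encodes a transmembrane collagen whose shed part was found in the amyloid plaques of human Alzheimer's disease. It had 1.92 to 5.91 CPM (median 2.88) in hIAPP islets at 16.7 mM against 1.41 to 2.82 CPM (median 2.27) at 11.1 mM. Col25a1 in mIAPP islets had 1.18 to 3.89 CPM (median 1.72) at 16.7 mM against 1.41 to 4.39 CPM (median 1.89) at 11.1 mM. The ranges overlapped, and 5 of 8 hIAPP sets were higher at 16.7 mM. The log2 fold change was 0.62 ± 0.26 (adjusted p = 0.0375) in hIAPP islets, lost without set 1, 2, 4 or 8, and -0.10 ± 0.26 (adjusted p = 0.775) in mIAPP islets; the interaction did not pass (adjusted p = 0.297).

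**Figure D3:**
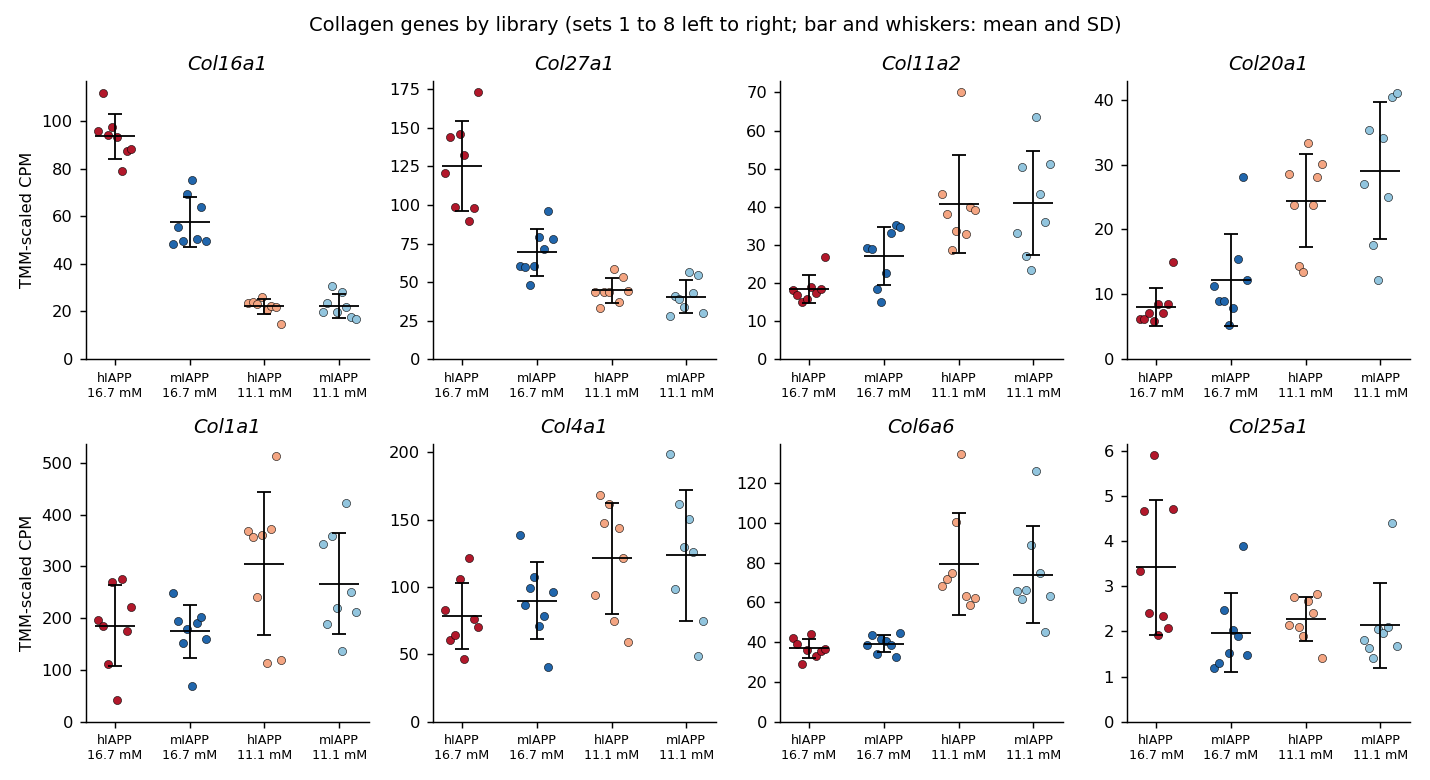
TMM-scaled CPM of 8 collagen genes in each library of the 4 groups (points, sets 1 to 8 from left to right; bar and whiskers, mean and SD of 8 libraries). Col16a1 and Col27a1 are highest in hIAPP islets at 16.7 mM. Col11a2, Col20a1, Col6a6, Col1a1 and Col4a1 have lower means at 16.7 than at 11.1 mM in both genotypes. Col20a1, Col1a1, Col4a1 and Col25a1 overlap between the glucose levels in both genotypes, and Col11a2 does in mIAPP islets.

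The second comparison asks how hIAPP differs from mIAPP islets at a given glucose level; at 16.7 mM it shares its hIAPP and mIAPP libraries with the glucose comparisons. At 16.7 mM Col16a1, Col27a1 and Col25a1 rose and Col11a2, Col13a1 and Col20a1 fell in hIAPP islets, 6 of 36 genes or 16.7%, beside 20.5% of all genes called (9.27% higher and 11.2% lower). The median log2 fold change was 0.03 for the collagen genes and -0.01 for all genes. Without the block, and in the 18 libraries under 10% mitochondrial counts, 3 collagen genes passed. Fibrillar chains had 1 higher and 1 lower of 9 and the others 2 higher and 2 lower of 22. Of the 5 basement membrane chains 0 passed with edgeR or DESeq2, and 1 had an unadjusted p under 0.05.

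Col16a1, at 93.6 ± 9.53 CPM in hIAPP and 57.7 ± 10.5 CPM in mIAPP islets (SD, n = 8 each), was the single collagen gene of 36 whose genotypes did not overlap at 16.7 mM, beside 2.98% of all genes. It was higher in 8 of 8 sets, at a log2 ratio of 0.70 ± 0.10 (SE; adjusted p = 3.19e-05), or 1.63-fold. Col27a1 was higher in 8 of 8 sets, at 125 ± 28.9 CPM in hIAPP and 69.2 ± 15.1 CPM in mIAPP islets, with a log2 fold change of 0.88 ± 0.14 (adjusted p = 6.75e-05), or 1.84-fold. Both calls were kept under all 16 alternatives, with Col16a1 between 0.66 and 0.76 and Col27a1 between 0.82 and 1.00 when a set was left out. Col25a1 was higher in 5 of 8 sets, at 3.42 ± 1.5 CPM in hIAPP and 1.97 ± 0.881 CPM in mIAPP islets, with a log2 fold change of 0.87 ± 0.26 (adjusted p = 0.0207); the call was lost without set 1, 2, 4 or 8, without the block and in the libraries under 10% mitochondrial counts.

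Col13a1 was lower in hIAPP islets in 7 of 8 sets, at 0.541 ± 0.248 CPM in hIAPP and 1.19 ± 0.567 CPM in mIAPP islets, with a log2 fold change of -1.10 ± 0.26 (adjusted p = 0.00482), a call kept under all 16 alternatives. Col11a2 was lower in 7 of 8 sets, at 18.4 ± 3.64 CPM in hIAPP and 27.1 ± 7.64 CPM in mIAPP islets, with a log2 fold change of -0.54 ± 0.14 (adjusted p = 0.00966); it was lost without the block, in the libraries under 10% mitochondrial counts and with the covariate. Col20a1 was lower in 5 of 8 sets, at 8.04 ± 2.99 CPM in hIAPP and 12.2 ± 7.07 CPM in mIAPP islets, with a log2 fold change of -0.53 ± 0.19 (adjusted p = 0.0442). That call was lost without set 1, 2, 3, 6 or 7 without the block, with no count filter, in the libraries under 10% mitochondrial counts and without the mIAPP library of set 7 alone, which had 28.0 CPM, and the estimate was 0.03 with the covariate. In mIAPP islets at 16.7 mM this library was also the highest for Col7a1 (15.6 CPM) and Col11a2 (35.1 CPM) and the lowest for Col3a1 (63.1 CPM) and Col4a1 (40.9 CPM).

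The abundant matrix chains did not pass at 16.7 mM. Col1a1 gave 0.03 ± 0.20, Col3a1 0.27 ± 0.29, Col4a1 -0.17 ± 0.23 and Col6a1 0.03 ± 0.24 for hIAPP over mIAPP islets.

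Col24a1 did not reach the count filter of the fit. It had 0.171 to 0.744 CPM (median 0.368) in hIAPP and 0 to 0.206 CPM (median 0.121) in mIAPP cultures at 16.7 mM, and 0 to 0.390 CPM (median 0.0930) in hIAPP and 0.121 to 0.357 CPM (median 0.201) in mIAPP cultures at 11.1 mM. The hIAPP library was the higher in 8 of 8 sets at 16.7 mM. At 16.7 mM its counts reached 34 in hIAPP islets but no more than 8 in mIAPP islets. At 11.1 mM they reached 13 in hIAPP and 10 in mIAPP islets. None of the 8 libraries that met the rule of 10 counts was thus an mIAPP library at 16.7 mM. Col24a1 was kept in part through the group where it was high, so the p-values below are not independent support. With the filter of 10 counts in 8 libraries, its log2 fold change for hIAPP over mIAPP was 1.60 ± 0.49 (adjusted p = 0.0238), and it was 1.64 ± 0.54 (adjusted p = 0.0545) with no filter. In the 18 libraries under 10% mitochondrial counts it was 1.39 ± 0.44 (adjusted p = 0.0854). Between 16.7 and 11.1 mM glucose in hIAPP islets the value was 1.46 ± 0.50 (adjusted p = 0.0123) with the filter of 10 counts, 1.57 ± 0.55 (adjusted p = 0.0225) with no filter and 0.03 ± 0.62 (adjusted p = 0.977) in the 18 libraries. In mIAPP islets it was -0.84 ± 0.53 (adjusted p = 0.194) with the filter of 10 counts. Tests of Col24a1 with the covariate or without the mIAPP library of set 7 were not run.

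**Figure D4:**
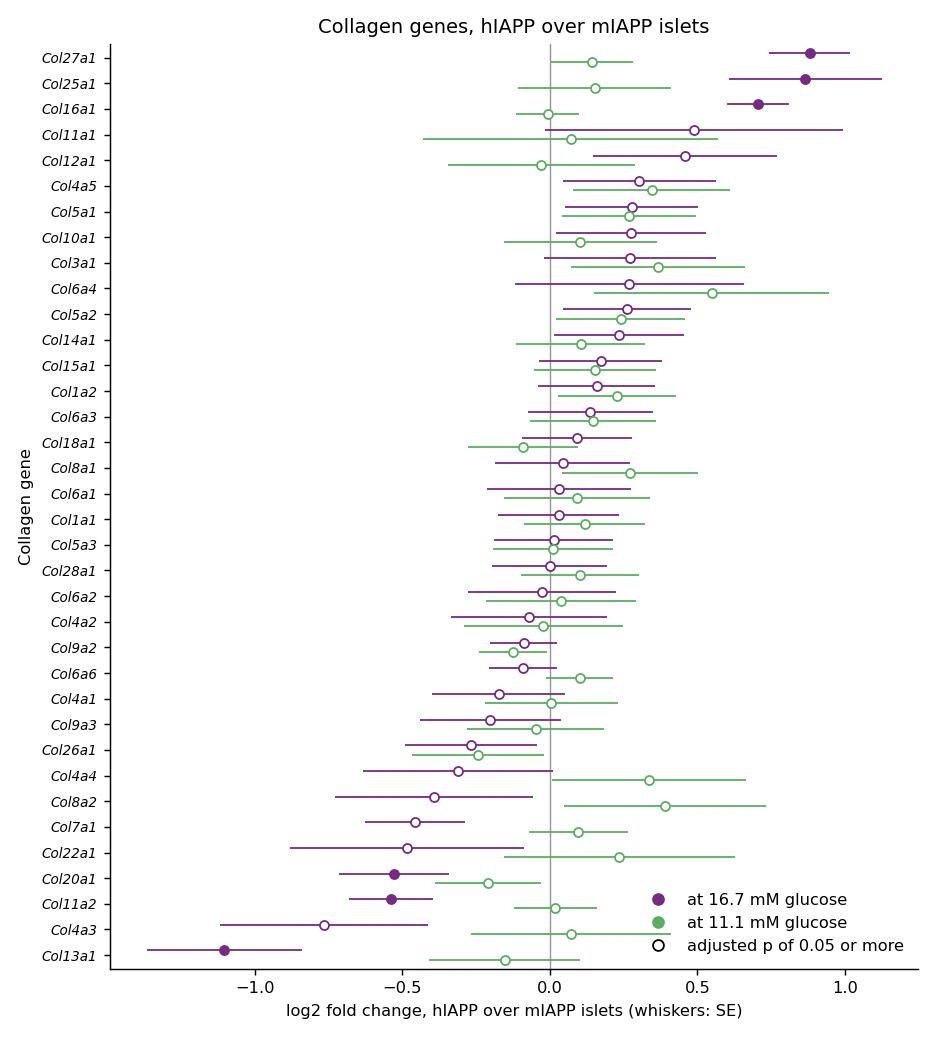
Log2 fold change (hIAPP over mIAPP islets, whiskers SE) of the 36 collagen genes tested, at 16.7 mM and at 11.1 mM glucose, ordered by the value at 16.7 mM; filled points passed adjusted p under 0.05. The 6 filled points are all at 16.7 mM, from Col27a1 at 0.88 to Col13a1 at -1.10.

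At 11.1 mM glucose 0 of 36 collagen genes passed between hIAPP and mIAPP islets with edgeR, 0 had an unadjusted p under 0.05 and 0 passed with DESeq2, beside 0.128% of all genes called (0.11% higher and 0.0183% lower). Col16a1 averaged 22.2 ± 3.30 CPM in hIAPP and 22.3 ± 4.98 CPM in mIAPP islets, with -0.01 ± 0.11, and Col27a1 44.5 ± 8.07 CPM in hIAPP and 40.6 ± 10.5 CPM in mIAPP islets, with 0.14 ± 0.14. The estimates were positive for 27 of 36 collagen genes, with a median of 0.10 where that of all genes was 0.00. With a set left out this median ran from 0.008 (without set 7) to 0.17 (without set 5). The difference of the 2 genotype effects, the genotype by glucose interaction, passed for 2 of 36 genes (5.56%, beside 3.12% of all genes, 2.17% higher and 0.95% lower). These were Col16a1, at 0.71 ± 0.15 (SE; adjusted p = 0.00572), and Col27a1, at 0.74 ± 0.20 (adjusted p = 0.0346), each positive in 8 of 8 sets. The Col16a1 interaction was lost with the mitochondrial covariate, at 0.59 (adjusted p = 0.0682), and in the libraries under 10% mitochondrial counts, at 0.78 (adjusted p = 0.262). That of Col27a1 was lost there too, at 0.79 (adjusted p = 0.0796) with the covariate and 0.89 (adjusted p = 0.151) in those libraries, and also without the block and without set 1, 2, 3, 4, 5, 6 or 8. For Col25a1, Col11a2 and Col13a1 the difference between glucose levels in the genotype effect did not pass.

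Summed over all 37 genes, collagen RNA came to 1348 ± 402 CPM in hIAPP and 1190.0 ± 276 CPM in mIAPP cultures at 16.7 mM, and to 1771 ± 597 CPM in hIAPP and 1585 ± 559 CPM in mIAPP cultures at 11.1 mM (SD, n = 8 each). This was 0.150% of the library counts in hIAPP and 0.119% in mIAPP cultures at 16.7 mM, and 0.179% in hIAPP and 0.156% in mIAPP cultures at 11.1 mM. Within sets the sum was lower at 16.7 than at 11.1 mM in 7 of 8 hIAPP sets, with a median ratio of 0.758, and in 6 of 8 mIAPP sets, with a median ratio of 0.788. Set 8 went the other way in hIAPP islets, with a ratio of 1.8. Between genotypes the sum was higher in hIAPP islets in 5 of 8 sets at 16.7 mM and 3 of 8 at 11.1 mM. Fibrillar chains made up 822 ± 285 CPM in hIAPP and 691 ± 174 CPM in mIAPP cultures at 16.7 mM, and 1062 ± 412 CPM in hIAPP and 898 ± 384 CPM in mIAPP cultures at 11.1 mM. The basement membrane sum was lower at 16.7 mM in 7 of 8 sets of each genotype, and that of the other chains in 7 of 8 hIAPP and 8 of 8 mIAPP sets.

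Markers of the cells that make collagen also fell with glucose. Of 14 stellate cell and fibroblast markers tested, none a collagen, 13 fell and 0 rose with glucose in hIAPP islets, 92.9% lower beside 33.3% of all genes. In mIAPP islets 5 fell and 0 rose, 35.7% lower beside 22.7% of all genes. All 15 listed markers of this kind, tested or not, summed to 63.2 to 167 CPM (median 114) in hIAPP islets at 16.7 mM against 126 to 299 CPM (median 207) at 11.1 mM, and to 100.4 to 230.4 CPM (median 148) in mIAPP islets at 16.7 mM against 146 to 309 CPM (median 189.9) at 11.1 mM. Of 14 endothelial markers 14 fell in hIAPP islets, at 27.8 to 79.3 CPM (median 61.9) at 16.7 mM against 86.7 to 238 CPM (median 134) at 11.1 mM, and 9 fell in mIAPP islets, at 53.4 to 177 CPM (median 96.5) at 16.7 mM against 88.6 to 249 CPM (median 141) at 11.1 mM. Fewer cells of a type and less RNA per cell cannot be told apart in whole islets, and the part of these cells in the collagen changes was not tested. At 16.7 mM 5 of 14 stellate and fibroblast and 8 of 14 endothelial markers were lower in hIAPP than in mIAPP islets and 0 higher. Of all genes 11.2% were lower and 9.27% higher in this comparison. Col1a1, Col3a1 and Col4a1 did not pass in it. The part of stellate, fibroblast and endothelial cells in the levels of these collagen genes was not tested. Marker counts with the mitochondrial share as a covariate are not given here.

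**Figure D5:**
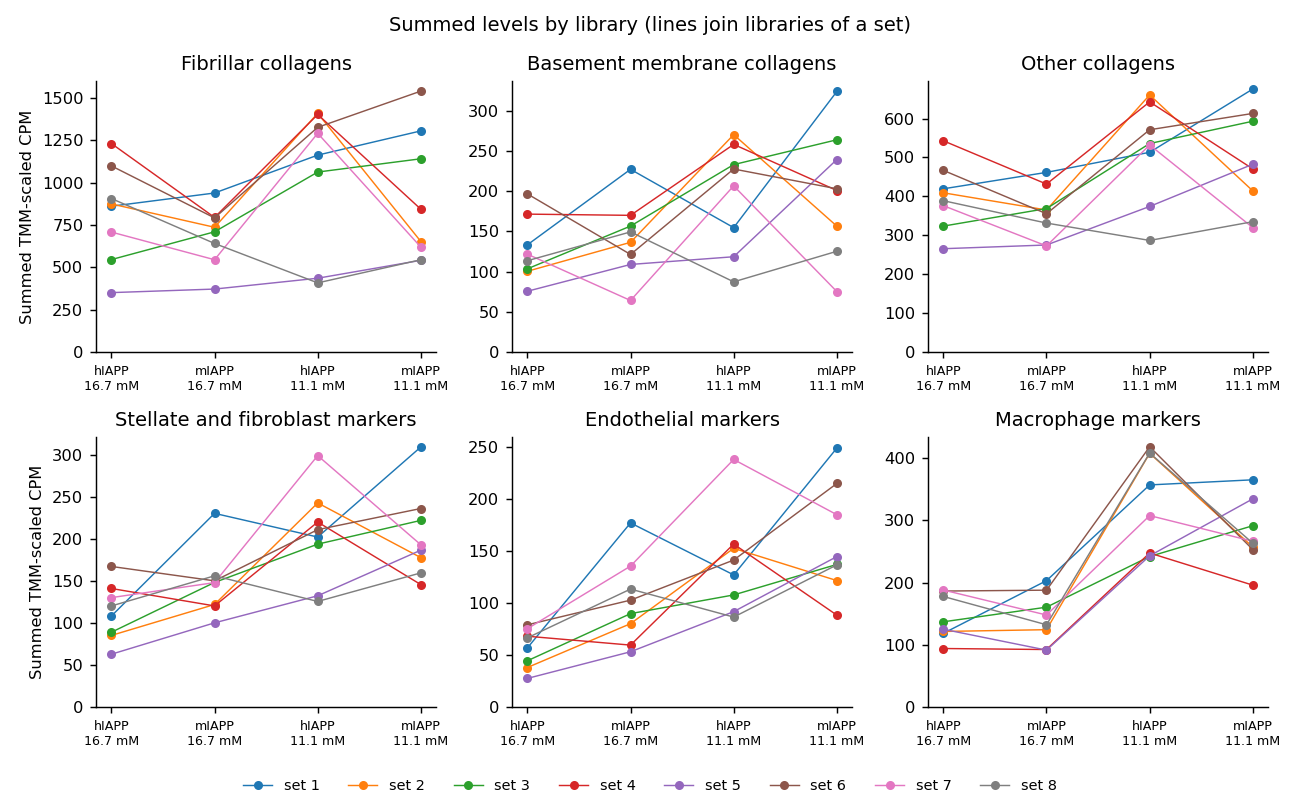
Summed TMM-scaled CPM of the 3 collagen classes and of stellate and fibroblast, endothelial and macrophage markers in each library, lines joining the 4 libraries of a set. Fibrillar sums run from 350.1 to 1541 CPM, and set 5 is low at 16.7 mM in both genotypes.

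Other marker lists gave these counts in the same fit, to be read beside the shares of all genes. With glucose 33.3% of all genes were lower and 32.2% higher in hIAPP islets, and 22.7% lower and 24.9% higher in mIAPP islets. Between genotypes at 16.7 mM 9.27% were higher and 11.2% lower in hIAPP islets, and the interaction was positive for 2.17% and negative for 0.95%. Glucose lowered 6 of 10 macrophage markers in hIAPP islets and 7 of them in mIAPP islets, and 2 were higher in hIAPP over mIAPP islets at 16.7 mM. They summed to 94.3 to 188 CPM (median 131) in hIAPP and 91.8 to 203 CPM (median 140.1) in mIAPP cultures at 16.7 mM, and to 242 to 417 CPM (median 332) in hIAPP and 196 to 364 CPM (median 264) in mIAPP cultures at 11.1 mM. Of 8 Schwann cell markers 3 fell with glucose in hIAPP islets and 3 fell and 1 rose in mIAPP islets, with 1 lower in hIAPP islets at 16.7 mM. Of 8 ductal markers tested 4 rose and 2 fell with glucose in hIAPP islets and 3 rose and 1 fell in mIAPP islets, with 2 higher in hIAPP islets at 16.7 mM and 2 positive interactions. All 10 listed ductal markers, tested or not, summed to 936 to 1751 CPM (median 1294) in hIAPP and 725 to 1170.0 CPM (median 921) in mIAPP cultures at 16.7 mM, and to 486 to 883 CPM (median 562) in hIAPP and 524 to 716 CPM (median 604) in mIAPP cultures at 11.1 mM. Of 11 acinar markers tested 1 rose and 1 fell with glucose in hIAPP islets and 1 fell in mIAPP islets. Of 9 beta cell markers 8 fell and 1 rose with glucose in hIAPP islets and 4 fell and 1 rose in mIAPP islets, with 6 lower in hIAPP islets at 16.7 mM and 1 negative interaction. Of 7 alpha, delta and PP cell markers 2 rose and 1 fell with glucose in hIAPP islets and 1 rose and 1 fell in mIAPP islets. The 13 mitochondrially encoded genes fell with glucose in 13 cases in hIAPP and 3 in mIAPP islets, and 12 were lower in hIAPP islets at 16.7 mM. No marker of any of these lists was at 0 throughout a group. Between genotypes at 11.1 mM 0 of the 94 list entries passed with edgeR or DESeq2, and 3 had an unadjusted p under 0.05.

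Among genes that modify and export collagen more rose than fell with glucose. Of the 21 listed, 12 rose and 3 fell with glucose in each genotype, 57.1% and 14.3%, beside 32.2% of all genes higher and 33.3% lower in hIAPP islets and 24.9% higher and 22.7% lower in mIAPP islets. These shares of all genes, and those above between genotypes and for the interaction, also stand beside the counts of the following lists. The list had medians of 0.53 in hIAPP and 0.37 in mIAPP islets on the log2 scale, where the median of all genes was -0.02 in hIAPP and -0.03 in mIAPP islets. Between genotypes 5 rose and 1 fell in hIAPP over mIAPP islets at 16.7 mM, with 1 positive interaction. P4ha1, the catalytic subunit of prolyl 4-hydroxylase, averaged 111 ± 20.8 CPM in hIAPP and 75.9 ± 10.8 CPM in mIAPP cultures at 16.7 mM, and 45.2 ± 10.0 CPM in hIAPP and 37.3 ± 7.97 CPM in mIAPP cultures at 11.1 mM. It rose with glucose, with a log2 fold change of 1.31 ± 0.10 (adjusted p = 5.48e-11) in hIAPP and 1.04 ± 0.10 (adjusted p = 8.09e-09) in mIAPP islets, and with a value of 0.53 ± 0.10 (adjusted p = 0.000433) for hIAPP over mIAPP islets at 16.7 mM. P4hb, its partner subunit and also a disulfide isomerase of secretory proteins in general, rose with glucose, with a log2 fold change of 1.57 ± 0.12 (adjusted p = 5.78e-11) in hIAPP and 1.23 ± 0.12 (adjusted p = 9.51e-09) in mIAPP islets. Mia3, which loads procollagen and other bulky cargo for export from the endoplasmic reticulum, rose, with a log2 fold change of 0.94 ± 0.09 (adjusted p = 1.82e-09) in hIAPP and 0.67 ± 0.09 (adjusted p = 1.03e-06) in mIAPP islets. P3h1, a prolyl 3-hydroxylase, rose likewise, with a log2 fold change of 1.13 ± 0.10 (adjusted p = 4.69e-10) in hIAPP and 0.83 ± 0.10 (adjusted p = 2.02e-07) in mIAPP islets. These 4 genes rose in 8 of 8 sets of both genotypes; secretory cells in general express them.

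Of 11 processing and cross-linking genes tested 6 fell and 1 rose with glucose in hIAPP islets and 4 fell in mIAPP islets (median log2 -0.38 in hIAPP and -0.35 in mIAPP islets), with 1 lower in hIAPP islets at 16.7 mM. Pcolce, the enhancer of procollagen C-proteinase, fell, with a log2 fold change of -0.98 ± 0.19 (adjusted p = 0.000105) in hIAPP and -0.93 ± 0.19 (adjusted p = 0.000337) in mIAPP islets, and Loxl1, a cross-linking oxidase, with a log2 fold change of -0.82 ± 0.18 (adjusted p = 0.000243) in hIAPP and -0.81 ± 0.18 (adjusted p = 0.000564) in mIAPP islets. Bmp1, the C-proteinase itself, had 72.1 ± 4.12 CPM in hIAPP and 87.8 ± 6.80 CPM in mIAPP cultures at 16.7 mM and was lower in hIAPP islets in 8 of 8 sets, with a log2 fold change of -0.28 ± 0.07 (adjusted p = 0.00718). Of 13 fibril-associated matrix proteins 5 fell with glucose in hIAPP islets and 1 in mIAPP islets (median log2 -0.37 in each). Among them was the proteoglycan Bgn, with a log2 fold change of -0.71 ± 0.18 (adjusted p = 0.00135) in hIAPP and -0.72 ± 0.18 (adjusted p = 0.00198) in mIAPP islets. Between genotypes at 16.7 mM 0 of the 13 passed with edgeR, 1 with DESeq2, and 1 had an unadjusted p under 0.05.

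Of 9 collagen receptors tested 6 fell and 1 rose with glucose in hIAPP islets and 3 fell and 1 rose in mIAPP islets (median log2 -0.56 in hIAPP and -0.31 in mIAPP islets), with 1 higher in hIAPP islets at 16.7 mM. The gene that rose was Itgb1, the beta chain shared by the collagen-binding integrins, with a log2 fold change of 0.82 ± 0.14 (adjusted p = 1.73e-05) in hIAPP and 0.66 ± 0.14 (adjusted p = 0.000411) in mIAPP islets and of 0.45 ± 0.14 (adjusted p = 0.0233) for hIAPP over mIAPP islets at 16.7 mM. Lair1, an inhibitory collagen receptor of leukocytes, fell, with a log2 fold change of -0.89 ± 0.16 (adjusted p = 4.85e-05) in hIAPP and -0.65 ± 0.16 (adjusted p = 0.0022) in mIAPP islets. Of 15 degradation genes tested 7 fell and 2 rose with glucose in hIAPP islets and 4 fell and 1 rose in mIAPP islets (median log2 -0.43 in hIAPP and -0.46 in mIAPP islets), with 3 higher in hIAPP islets at 16.7 mM and 1 positive interaction. That interaction was of Mmp12, the macrophage elastase, with 18.6 ± 6.49 CPM in hIAPP and 7.68 ± 2.37 CPM in mIAPP cultures at 16.7 mM, and 12.1 ± 3.55 CPM in hIAPP and 10.7 ± 4.62 CPM in mIAPP cultures at 11.1 mM. It was higher in hIAPP islets at 16.7 mM, with a log2 fold change of 1.28 ± 0.17 (adjusted p = 9.63e-06), and its interaction was 1.10 ± 0.24 (adjusted p = 0.00966) (log2). Of the 10 macrophage markers given above, 2 were higher in hIAPP islets at 16.7 mM, 0 had an interaction that passed, and 6 fell with glucose in hIAPP islets. The part of macrophages in the Mmp12 values was not tested.

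Of 16 basement membrane partners of type IV collagen 6 fell and 2 rose with glucose in hIAPP islets and 4 fell in mIAPP islets (median log2 -0.47 in hIAPP and -0.26 in mIAPP islets), with 2 higher and 1 lower in hIAPP islets at 16.7 mM and 2 positive interactions. Among those with an interaction was Lama3, an alpha chain of epithelial laminins. Lama3 averaged 31.8 ± 22.8 CPM in hIAPP and 1.33 ± 0.668 CPM in mIAPP cultures at 16.7 mM, and 0.844 ± 0.677 CPM in hIAPP and 0.666 ± 0.458 CPM in mIAPP cultures at 11.1 mM. It was higher in hIAPP islets at 16.7 mM in 8 of 8 sets, with a log2 fold change of 4.56 ± 0.43 (adjusted p = 7.52e-08), with an interaction of 4.33 ± 0.65 (adjusted p = 0.0003). Sparc, a collagen-binding protein of basement membranes, fell with glucose in 8 of 8 sets of each genotype, with a log2 fold change of -1.16 ± 0.17 (adjusted p = 2.69e-06) in hIAPP and -0.66 ± 0.17 (adjusted p = 0.00239) in mIAPP islets. Of the 8 ductal markers tested, 2 were higher in hIAPP islets at 16.7 mM and 2 had a positive interaction. The median log2 fold change of that list between genotypes at 16.7 mM was 0.30. The part of ductal cells in the Lama3 values was not tested.

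Of 15 genes of TGF-beta signalling, a main inducer of fibrillar collagens, 6 rose and 4 fell with glucose in hIAPP islets and 2 rose and 6 fell in mIAPP islets (median log2 -0.10 in hIAPP and -0.28 in mIAPP islets), with 2 higher in hIAPP islets at 16.7 mM. Among these was Skil, a transcriptional target of the pathway and an inhibitor of its Smad proteins, with a log2 fold change of 0.56 ± 0.16 (adjusted p = 0.0177). The ligand Tgfb1 fell with glucose, with a log2 fold change of -0.68 ± 0.16 (adjusted p = 0.000677) in hIAPP and -0.69 ± 0.16 (adjusted p = 0.00111) in mIAPP islets. Between genotypes at 11.1 mM 0 of the 100 entries of the 7 lists passed with edgeR or DESeq2, and 5 had an unadjusted p under 0.05.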

How the data were processed

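Poly(A)-selected RNA of 32 islet cultures was sequenced. Per the submitters' processing notes, bcl2fastq 1.8.4 and kallisto 0.45.0 were used with GRCm38; the transcript annotation and strand setting are not given in the sources used here. The authors deposited estimated counts per gene as whole numbers, so no rounding was needed, with library totals of 16.1 M to 43.7 M.

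All 32 libraries were fitted together in edgeR 4.0.16 (R 4.3.3): TMM scaling, filterByExpr by group, robust quasi-likelihood fit, set as a block, 21 residual degrees of freedom, 16428 genes tested, Benjamini-Hochberg adjustment and a threshold of 0.05. The set number marks a shared experiment per the labels' protocols; the mean correlation of same-set deviations was 0.15 to 0.32 over the pairs of groups. The fit was tested on simulated data. Exon lengths and overlaps came from GENCODE M21, which held 36047 of the 36595 gene IDs. Limits for a count of 0 use 3 counts.

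The collagen genes, 7 gene lists (modification and secretion, processing and cross-linking, receptors, degradation, basement membrane partners, fibril-associated matrix, TGF-beta signalling) and 9 marker lists were chosen with earlier results of these data known. Values are given for each collagen gene past the threshold in any comparison and the highest of each class, and the others are counted. The alternatives were no block, RLE scaling, DESeq2 1.42.0, another and no count filter, each set left out, 1 library left out, 18 libraries under 10% mitochondrial counts, and that share as a covariate.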

Additional observations from a re-analysis of the deposited data

Results flagged for a closer look

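Of 92 sets of 8 values from collagen genes past the threshold, 11 held a library far from the other 7 (Dixon's test). For independent, normally distributed values the test marks about 1 in 20 groups. The groups here share libraries and the CPM were not log-transformed, so that rate cannot tell whether 11 is an excess. Set 7 was the library in 5 of the 11, all in mIAPP islets. In mIAPP islets at 16.7 mM it held Col20a1 at 28.0 CPM with the next library at 15.4, Col25a1 at 3.89 with the next at 2.46, and Col4a3 at 2.01 with the next at 1.06. In mIAPP islets at 11.1 mM it held Col25a1 at 4.39 CPM with the next at 2.11, and Col26a1 at 7.83 with the next at 4.48. These libraries had mitochondrial shares of 37% at 16.7 mM and 34.7% at 11.1 mM, the highest of their groups, and the part of that share in these values was not tested.

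Set 8 stood apart in hIAPP islets. At 16.7 mM it held Col11a2 at 26.8 CPM with the next library at 18.8, and Col20a1 at 15.0 with the next at 8.52. At 11.1 mM it held the lowest Col16a1, at 14.9 CPM, with the next at 20.8.

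Single libraries gave the other values. Col11a2 reached 70.2 CPM in set 5 of hIAPP islets at 11.1 mM, with the next library at 43.4. Col13a1 reached 3.08 CPM in set 1 of mIAPP islets at 11.1 mM, with the next at 1.73. Col28a1 reached 4.65 CPM in set 4 of mIAPP islets at 16.7 mM, with the next at 3.00.

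The genotype effect differed between the glucose levels for Col27a1, by 0.74, and for Col16a1, by 0.71 (log2, hIAPP over mIAPP at 16.7 mM minus the same at 11.1 mM), each by the interaction test in the same fit.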

How the results depend on the processing

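Numbers of collagen genes called moved most in 3 settings. Without the replicate block, 3 passed in hIAPP against mIAPP islets at 16.7 mM (6 with it), 8 in the glucose comparison of mIAPP islets (15 with it) and 1 in the interaction (2 with it); in the whole table the first of these counts was 1301 genes, beside 3371. In the 18 libraries under 10% mitochondrial counts 3, 15 (of the hIAPP glucose comparison, 23 in all libraries) and 0 interactions passed, and with the mitochondrial share as a covariate 0 interactions. With a set left out the counts were 4 to 8 between genotypes at 16.7 mM, 15 to 23 with glucose in hIAPP islets (15 without set 2), 10 to 20 with glucose in mIAPP islets, 1 to 2 for the interaction and 0 at 11.1 mM. With the covariate the sign changed for Col20a1 between genotypes at 16.7 mM, to 0.0262, and with glucose in hIAPP islets for Col26a1, to 0.10, and for Col4a3, to 0.21; the cause was not tested. Over the 46 gene results and 16 alternatives, 599 values kept direction and call, 134 kept direction and lost the call and 3 changed sign. With no count filter the genes that fell with glucose were 13 in hIAPP islets (20 with it) and 8 in mIAPP islets (13 with it). RLE scaling, DESeq2 and the filter of 10 counts moved no count of collagen genes by over 1.5 times, in total or by direction.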
